A study of Mus musculus with 4 samples.

Results

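The injury-state cells described here are Epcam+ epithelial cells of the mouse distal jejunum in which genes of the Sprr and Gml families were detected after ischemia–reperfusion (I/R). They were chosen by measured values: a barcode with at most 10% of its UMIs on mitochondrial genes had to carry a UMI of Epcam, at least 2 UMIs of each of at least 3 of 6 marker genes (Sprr2a3, Sprr1a, Gml, Gml2, Krt7 and Tm4sf4), and at least 2 UMIs in fewer than 3 of 6 genes of the villus top (Nt5e, Ada, Slc28a2, Ly6m, Clca4a and Slc23a4). A UMI marks 1 captured RNA molecule. Of 22679 barcodes, 5876 were kept, 3498 of these were Epcam+, and 176 were injury-state cells, which is 5.03% of the Epcam+ and 2.995% of the kept cells. By mouse, Control 1 gave 19, Control 2 gave 1, EC-Foxc-DKO 1 gave 15 and EC-Foxc-DKO 2 gave 141 of them. One mouse, EC-Foxc-DKO 2, thus held 80.1% of the cells.

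Droplet-based single-cell RNA sequencing was run on 4 mice, each 1 library and 1 replicate, 18.5 h after blood flow to the small intestine had been stopped and restored. Control mice were Foxc1fl/fl;Foxc2fl/fl, and EC-Foxc-DKO mice carried the same floxed alleles with Cdh5-CreERT2. All were adult males that received tamoxifen before the surgery. The Cdh5 promoter drives Cre in endothelial cells, so the genotype of the epithelial cells themselves is not the target of the deletion. No uninjured mouse was part of these samples, so injury-state is a working name for cells with these markers, and whether the injury brought them about was not tested. The injury-state cells had a median of 27945, 8795, 30974 and 23876 UMIs in Control 1, Control 2, EC-Foxc-DKO 1 and EC-Foxc-DKO 2. Among all libraries, 51 barcodes occurred in more than 1, but none of these was an injury-state cell.

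The lining of the small intestine is a single sheet of cells that are born in crypts, mature into absorptive, mucus-secreting or hormone-secreting cells, and move up the villus until they are shed at its tip. After damage, cells at the border of a wound flatten, change their keratins and junction proteins and cover the bare surface. Small proline-rich proteins (SPRR) are best known as crosslinked building blocks of the barrier of squamous epithelia such as skin, and they are also made in the gut under stress. Gml and Gml2 belong to the Ly6 family of small cysteine-rich proteins, many of which are anchored to the cell surface by lipid.

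The 6 marker genes lie on chromosomes 3 and 15 (GRCm38, the assembly that mm10 names; GENCODE annotation). Sprr2a3 is at chr3:92285417-92291405 and Sprr1a at chr3:92483952-92485895, inside a stretch of 15 Sprr genes that spans chr3:92215799-92500493. Gml (chr15:74813452-74818815) and Gml2 (chr15:74819071-74834871) are neighbors on opposite strands within a stretch of 15 Ly6 and Gml genes. Krt7, a keratin of simple ducts and of stressed epithelium, is at chr15:101411043-101430313, and Tm4sf4, which encodes a membrane protein of the tetraspanin-like TM4SF family, is at chr3:57425314-57441677. Near-identical copies limit what some of these counts can say: of the 50-base words in the last 500 bases of Sprr2a3, 63.4% also occur in Sprr2a1 and in Sprr2a2, and of those of Gml, 23.4% occur in Gml2, whereas Sprr1a, Krt7 and Tm4sf4 shared none with the other genes compared. Reads in shared stretches cannot be assigned to 1 gene, so the split among Sprr2a genes and between Gml and Gml2 is uncertain.

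The cells carried the markers in different combinations. Tm4sf4 reached 2 UMIs in 154 of the 176 cells, Sprr2a3 in 143, Gml2 in 119, Krt7 in 118, Gml in 115 and Sprr1a in only 22. The commonest combination was Sprr2a3, Gml, Gml2, Krt7 and Tm4sf4 together (34 cells), followed by Sprr2a3, Krt7 and Tm4sf4 (28 cells) and by Sprr2a3, Gml, Gml2 and Tm4sf4 (24 cells). Gml and Gml2 were found together in 97 cells, which is 84.3% of the cells with Gml and 81.5% of those with Gml2. All 6 markers were found in 8 cells, 1 in EC-Foxc-DKO 1 and 7 in EC-Foxc-DKO 2. Since the markers chose the cells, these counts describe the set and test nothing.

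The levels of the markers are given as CPM: UMIs were added up over the cells of a mouse and scaled to a total of 1000000. In Control 1, EC-Foxc-DKO 1 and EC-Foxc-DKO 2, Sprr2a3 was at 401, 745 and 701 CPM in the injury-state cells and at 24.9, 19.1 and 73.6 CPM in absorptive enterocytes, the nutrient-absorbing cells of the villus, here Epcam+ cells with at least 3 of 6 absorptive genes and outside both the injury-state and the villus-top set. Gml was at 35.6, 84.3 and 153 CPM against 0.933, 0.867 and 10.7 CPM. Krt7 was at 505, 675 and 570 CPM against 49.3, 58.0 and 112 CPM. Akr1b8, an aldo-keto reductase that the rule did not use, was at 38.3, 111 and 121 CPM against 1.49, 3.99 and 29.8 CPM. For Sprr2a3, Gml and Krt7 the rule fixed this order. For Akr1b8 the lowest injury-state value lay above the highest absorptive one. The single cell of Control 2 had 2 UMIs of Sprr1a, 2 of Krt7 and 4 of Tm4sf4 and none of Sprr2a3, Gml, Gml2 or Akr1b8.

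**Figure D1:**
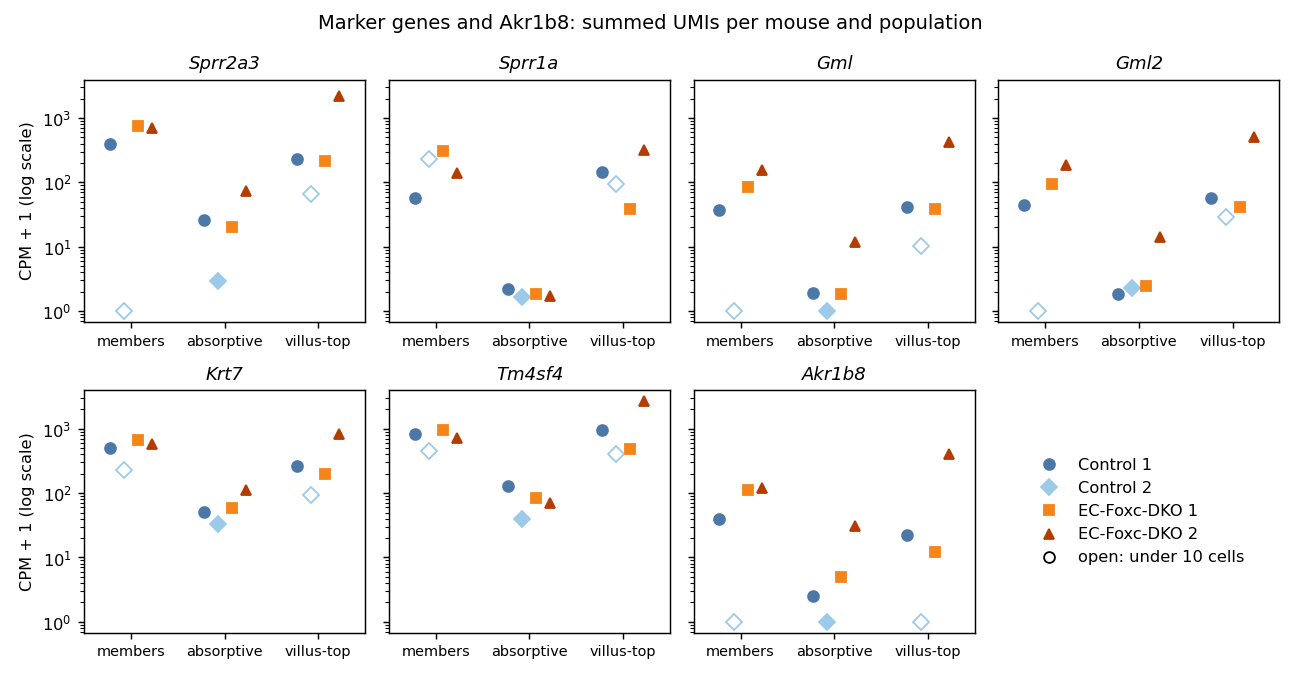
Level of the 6 marker genes and of Akr1b8 in summed UMIs (CPM + 1, log axis) for each mouse in injury-state cells (members), absorptive enterocytes and villus-top cells; each point is 1 mouse, and open points rest on fewer than 10 cells. In EC-Foxc-DKO 2 the villus-top cells lie above the injury-state cells for all 7 genes, with Sprr2a3 at 2210 against 701 CPM. In EC-Foxc-DKO 1 they lie below for all 7, with Sprr2a3 at 218 against 745 CPM, and in Control 1 the direction differs among the genes.

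Sprr1a was the rarest marker. Its highest cell held 185 UMIs in EC-Foxc-DKO 2, 88 in EC-Foxc-DKO 1 and 13 in Control 1, and the median cell of each of these mice held none. The 250 bases before its start are shown because they hold the letters TGANTCA, a motif bound by AP-1 factors that is searched again below. The motif reads the same on both strands apart from its free central base, so both strands were covered. Capitals mark the 2 matches, which begin 146 and 116 bases before the start (RefSeq, GRCm38.p6, chr3:92485882-92486131, minus strand, written 5′ to 3′).
Sprr1a: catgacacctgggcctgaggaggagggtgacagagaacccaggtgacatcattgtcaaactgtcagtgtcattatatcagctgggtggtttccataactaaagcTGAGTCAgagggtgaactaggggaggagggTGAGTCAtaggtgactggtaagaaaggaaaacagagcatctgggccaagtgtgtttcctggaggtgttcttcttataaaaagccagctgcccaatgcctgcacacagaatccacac
The same letters occur in 6.75% of 32851 promoter windows of this length. Of the 4 marker genes with a promoter in the table used, only Sprr1a held a match.

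The rule for villus-top genes removed more cells than it left. At least 3 markers were found in 465 Epcam+ cells, and 289 of them (62.2%) carried at least 3 villus-top genes: 85 in Control 1, 1 in Control 2, 41 in EC-Foxc-DKO 1 and 162 in EC-Foxc-DKO 2. Just inside this limit were 59 cells with 2 villus-top genes, with Sprr2a3 at 1061 and Gml at 174 CPM over all mice, and just outside were 65 cells with 3 such genes, with Sprr2a3 at 1438 and Gml at 273 CPM. At the limit on markers, 83 cells with 3 markers had Sprr2a3 at 367 and S100a6 at 4032 CPM, and 266 cells with 2 markers and too few villus-top genes had Sprr2a3 at 96.8 and S100a6 at 1862 CPM. At both limits the cells just outside carried these genes too.

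Whether the share of injury-state cells differs between the genotypes was tested over mice. The share of Epcam+ cells was 1.56% in Control 1 (exact 95% interval 0.944 to 2.43%), 0.629% in Control 2 (0.0159 to 3.45%), 1.16% in EC-Foxc-DKO 1 (0.653 to 1.91%) and 16.9% in EC-Foxc-DKO 2 (14.4 to 19.6%). The intervals cover counting error only. EC-Foxc-DKO 1 lay between the controls, and only EC-Foxc-DKO 2 stood apart. With n = 2 mice per genotype, controls averaged 1.10% ± 0.661 (SD) and EC-Foxc-DKO mice 9.02% ± 11.1 (SD). The difference of 7.92 percentage points did not pass the two-sided exact permutation test (p = 0.667; the smallest p that 2 against 2 mice allow is 0.33). Without EC-Foxc-DKO 2 the difference was 0.0682 percentage points.

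The denominator held other cells as well. Epcam+ cells with at least 2 of 6 leukocyte genes made up 43.3% of the Epcam+ cells outside the set in EC-Foxc-DKO 1, 30.4% in Control 2, 13.1% in Control 1 and 11.1% in EC-Foxc-DKO 2. Leaving out such cells outside the set gave shares of 1.80, 0.901, 2.04 and 18.6% in Control 1, Control 2, EC-Foxc-DKO 1 and EC-Foxc-DKO 2. The 2 injury-state cells with at least 2 leukocyte genes, both in EC-Foxc-DKO 2, were kept. Both EC-Foxc-DKO mice then lay above both controls, and the exact permutation p was 0.33. At a limit of 4 markers the shares were 0.658, 0, 0.776 and 8.97% in the same order. Both EC-Foxc-DKO mice lay above both controls there too, and the exact permutation p was 0.33. With the villus-top cells counted in, 104, 2, 56 and 303 cells qualified, and EC-Foxc-DKO 1 again lay between the controls.

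**Figure D2:**
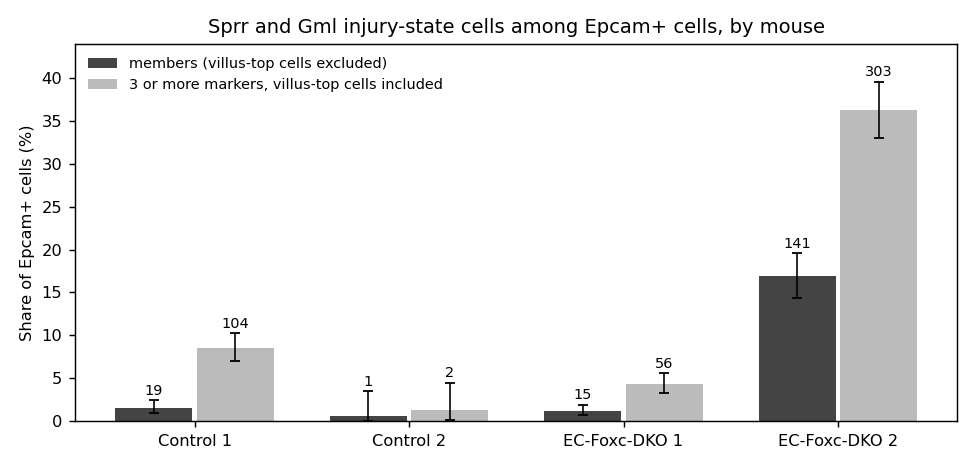
Injury-state cells as a share of Epcam+ cells (%) in each mouse (dark bars) and all Epcam+ cells with 3 or more markers, villus-top cells included (light bars); error bars are exact 95% binomial intervals and the numbers above them are cells. EC-Foxc-DKO 2 reached 16.9%, and the other 3 mice stayed between 0.629 and 1.56%.

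The paper's cluster with the closest marker list carries the name Enteroendocrine cell 2, so hormone genes were examined in each mouse. Enteroendocrine cells are the hormone-secreting cells of the gut lining. UMIs of 14 hormones summed to 32.99 CPM in the injury-state cells of Control 1, 455 CPM in the single cell of Control 2, 125 CPM in EC-Foxc-DKO 1 and 155 CPM in EC-Foxc-DKO 2. In the 90 Epcam+ cells with at least 3 of 8 enteroendocrine genes they summed to 157000, 91516, 100791 and 98795 CPM. The sets were far apart in every mouse, but the 8 genes that chose the hormone cells include the hormone gene Sct. Single cells set part of these sums: of the 155 CPM of EC-Foxc-DKO 2, 98.6 CPM were somatostatin (Sst), with 389 of its 391 UMIs in 1 cell, and without goblet-rich cells EC-Foxc-DKO 1 was at 47.3 CPM. A hormone UMI was present in 101 of the 176 cells (57.4%) and in 743 of 1302 absorptive enterocytes (57.1%). By mouse the shares were 57.9, 73.3 and 55.3% of the injury-state cells in Control 1, EC-Foxc-DKO 1 and EC-Foxc-DKO 2, and 63.0, 61.6 and 48.0% of absorptive enterocytes. Drawn down to 2000 UMIs per cell, the shares over all mice were 10.5 and 11.1%, against 95.7% in the 90 hormone cells and 4.24% in B cells, which should lack hormones and had a median of 3320 UMIs per cell.

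Single hormone genes were spread unevenly. Sst had 392 UMIs in 4 cells, secretin (Sct), the most widespread one, 206 UMIs in 84 cells, gastric inhibitory polypeptide (Gip) 69 UMIs in 15 cells, 55 of them in 1 cell, and cholecystokinin (Cck) and glucagon (Gcg) 2 UMIs each. Neurod1, a transcription factor that hormone cells need, and Tph1, which makes serotonin in the gut, had no UMI in any of the 176 cells. In absorptive enterocytes Neurod1 had a UMI in 47 and Tph1 in 33 of 1302 cells. A count of 0 in the 141 cells of EC-Foxc-DKO 2 allows, at 3 counts and for counting error only, 2.13% of cells with a UMI. It sets no limit on cells that express these genes, since few UMIs of a low gene are captured per cell. Chromogranin A (Chga), a protein of hormone granules, had a UMI in 76 cells and a level of 29.0, 51.4 and 44.6 CPM in Control 1, EC-Foxc-DKO 1 and EC-Foxc-DKO 2, against 7566, 4524 and 3101 CPM in the hormone cells. With Chga in these 3 mice and the hormone sum in all 4 far below the hormone cells, the set is not called enteroendocrine here.

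Genes of absorptive enterocytes were present in most of the cells. At least 3 of 6 absorptive genes were found in 159 of the 176 cells (90.3%). By mouse these were 17 of 19 in Control 1, 0 of 1 in Control 2, 12 of 15 in EC-Foxc-DKO 1 and 130 of 141 in EC-Foxc-DKO 2. Among the other Epcam+ cells the share was 64.4%, and 78.9, 40.5, 46.3 and 78.1% in the same order of mice. Few cells carried genes of other lineages, and outside EC-Foxc-DKO 2 the cells were too few to compare such shares. In EC-Foxc-DKO 2, at least 3 genes of tuft cells were found in 0 of 141 cells (at most 2.13% with a count of 0), against 2.73% of the other Epcam+ cells of that mouse. Genes of stem cells were found in 0 of 141 against 9.78%, of hormone cells in 1 (0.709%) against 4.03%, of M cells in 2 (1.42%) against 1.73% and of Paneth cells in 3 (2.13%) against 3.45%. In the other mice, 1 cell of Control 1 carried stem-cell genes (5.26% of its 19 cells, against 1.25%), 1 cell of EC-Foxc-DKO 1 carried Paneth-cell genes (6.67% of its 15 cells, against 0.550%), and none carried tuft, hormone or M-cell genes. At least 2 leukocyte genes were found in 2 cells and at least 2 genes of B or plasma cells in 5, all in EC-Foxc-DKO 2. Cycling genes were found in 17 cells, with no common direction over mice: in EC-Foxc-DKO 2 they were in 10.6% of the injury-state and 17.6% of the other Epcam+ cells, in EC-Foxc-DKO 1 in none against 3.85%, in Control 2 in none against 6.96%, and in Control 1 in 2 cells, 10.5% against 1.92%.

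A separate group of 16 cells carried goblet genes, which encode the mucus and its associated proteins. These goblet-rich cells had at least 2 UMIs in at least 5 of 10 goblet genes, with 3 in Control 1, the single cell of Control 2, 4 in EC-Foxc-DKO 1 and 8 in EC-Foxc-DKO 2. In them the 10 genes took 5.56 to 63.2% of a cell's UMIs, with a median of 31.9%. In the other 160 cells they took at most 0.122%. No cell lay between these ranges, and goblet-rich cells made up 26.7% of the set in EC-Foxc-DKO 1 and 5.67% in EC-Foxc-DKO 2. Of the 6 cells that qualified by Sprr1a, Krt7 and Tm4sf4 alone, 5 were goblet-rich.

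**Figure D3:**
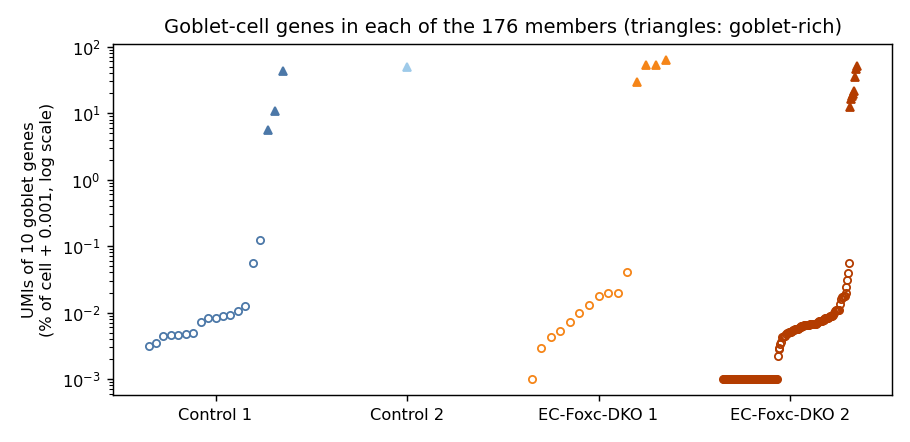
Share of each cell's UMIs on 10 goblet genes (% + 0.001, log axis) for the 176 injury-state cells, by mouse and in rising order; triangles are the 16 goblet-rich cells. They lie between 5.56 and 63.2%, and the other 160 cells at or below 0.122%.

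How the injury-state cells differ in level from absorptive enterocytes was described within each mouse, as a ratio of CPM with 1 CPM added. A gene was called where it was at least 2-fold higher, or lower, in each of the 3 mice with at least 5 such cells, which leaves out Control 2. These calls carry no test, because the cells were chosen on values of the same cells. Of 7054 genes with at least 10 CPM, 121 were called higher (1.72%) and 63 lower (0.893%). Among the genes furthest higher were the goblet genes Fcgbp, Clca1, Muc2, Tff3, Zg16 and Spink4, and among those furthest lower the hormone genes Nts, Gip, Cck, Pyy and Sct. These calls came with the cells described above: without the goblet-rich cells Fcgbp, Clca1 and Zg16 lay below the absorptive enterocytes. Once hormone, goblet, tuft and cycling cells were also left out of the absorptive enterocytes, Gip lay above them. The values against absorptive enterocytes that follow are therefore from the 160 other cells, set against absorptive enterocytes without hormone, goblet, tuft and cycling cells, a choice made after the data were seen. There, 111 of 6758 genes were called higher (1.64%) and 36 lower (0.533%), and the median of all genes was -0.01 on the log2 scale. A gene entered with 10 CPM in either set, so one below that in absorptive enterocytes entered only through the injury-state cells and had to be higher in them on average. Among the genes below that were called and are not in the rule, the Sprr genes apart, Ly6d, Psca, Krt23, Cldn4, S100a14, Actn1, Anxa3, Anxa5, Slc2a1, Hk2 and Akr1b8 entered that way, and H2-DMa and H2-DMb1 through absorptive enterocytes alone. Counts and medians over lists that hold such genes describe the cells and support nothing further.

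With the genes of the rule left out, the gene furthest higher was Ly6d, a surface protein of the Ly6 family. It was at 65.1, 421 and 415 CPM in Control 1, EC-Foxc-DKO 1 and EC-Foxc-DKO 2, against 2.38, 15.8 and 5.75 CPM in absorptive enterocytes, a log2 ratio of 4.96 ± 0.87 (SD, n = 3 mice). The sets did not overlap. In EC-Foxc-DKO 1, 117 of the 160 Ly6d UMIs lay in the 1 cell with all 6 markers, and without it the level was 121 CPM. The same cell took Cldn4 in that mouse from 87.3 to 176 CPM and Akr1b8 from 64.7 to 142 CPM. S100a6, a calcium-binding protein, was at 6441, 8194 and 4814 CPM against 315, 316 and 861 CPM (3.84 ± 1.19). It was high in all 3 mice and least different in EC-Foxc-DKO 2, where absorptive enterocytes held more of it. Its relative S100a11 followed with 3.76 ± 1.10. Capg, a protein that caps actin filaments, was 4.23 ± 1.01 higher, Cldn4, a claudin of tight junctions, 3.82 ± 0.75, and Tmsb4x, which binds actin monomers, 2.29 ± 0.55. Pold4, a small subunit of DNA polymerase delta, had the most even ratio of the genes named, 2.48 ± 0.20, with 259, 334 and 246 CPM against 47.3, 50.1 and 48.8 CPM. Pmp22 was the least even, at 136, 694 and 246 CPM against 66.5, 41.8 and 11.1 CPM (3.13 ± 1.83).

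Fewer genes were lower. Pigr, the receptor that carries antibodies across the epithelium, was at 364, 78.9 and 288 CPM in the injury-state cells and at 1979, 1433 and 769 CPM in absorptive enterocytes (-2.67 ± 1.39). Its 3 values all lay below the absorptive ones. Slc5a4b, a member of the sodium–glucose transporter family, was -2.63 ± 1.18, Rdh7, a retinol dehydrogenase, -2.09 ± 0.42, and Apol10a -2.07 ± 0.28. Plb1 (-4.54 ± 2.82) and H2-Eb1 (-3.95 ± 2.84) varied most, since EC-Foxc-DKO 1 had no UMI of either and EC-Foxc-DKO 2 held 32.0 and 46.3 CPM.

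**Figure D4:**
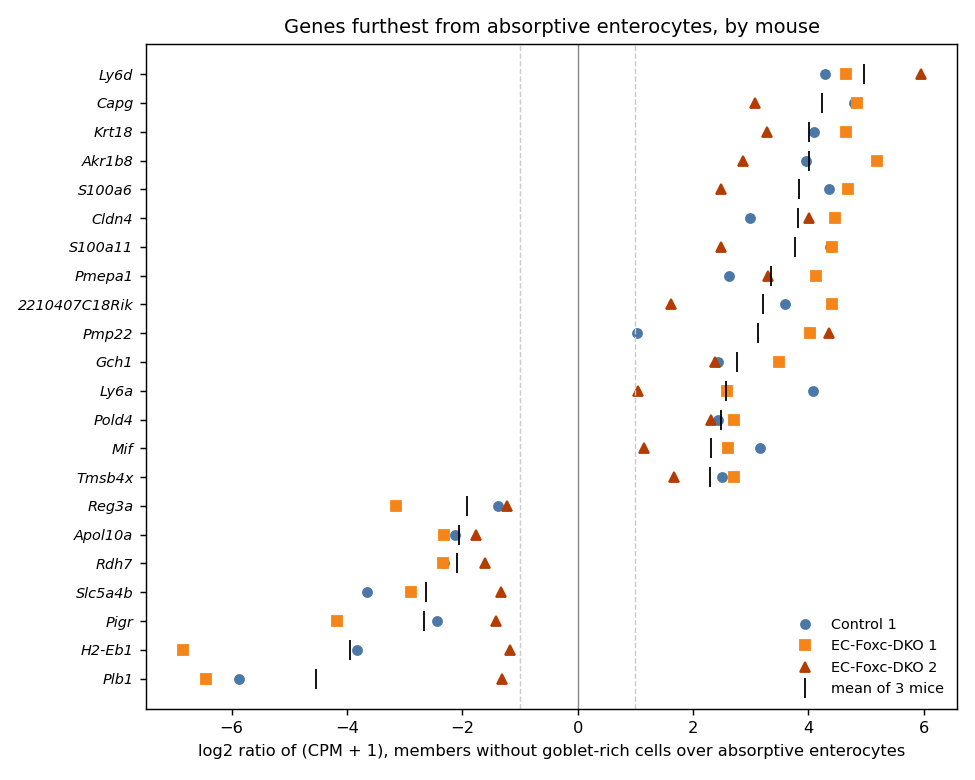
Log2 ratio of CPM + 1 between injury-state cells without goblet-rich cells and absorptive enterocytes in 3 mice for the genes furthest higher or lower; symbols are mice, bars their mean, and dashed lines 2-fold. The genes of the rule are left out. Ly6d leads at 4.96 and Plb1 is lowest at -4.54; all points lie beyond 2-fold, as the call required.

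The Sprr genes other than Sprr2a3 were low in absorptive enterocytes. Of the 15 genes of the family 6 had enough UMIs, and besides the markers Sprr2a3 and Sprr1a, Sprr2a1, Sprr2a2 and Sprr2b were called higher. Sprr2a1 and Sprr2a2 share sequence with Sprr2a3, and all but Sprr2a3 of the genes called entered through the injury-state cells alone. Sprr2b was at 4.44, 44.7 and 13.3 CPM against 0.992, 0.706 and 4.03 CPM. Of the Ly6 and Gml family, 8 of 11 genes with enough UMIs were called higher, but Gml and Gml2 are markers and Ly6m is a villus-top gene of the rule. The 5 others were Ly6a, Ly6c1, Ly6d, Ly6g and Psca (4.44, 89.4 and 65.0 CPM against 0.331, 2.72 and 24.9 CPM). Ly6a, also known as Sca-1 and used as a mark of fetal-like repair epithelium, was at 32.6, 39.4 and 271 CPM against 0.992, 5.75 and 131 CPM. It was high in both sets of EC-Foxc-DKO 2.

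Keratins form the filaments that brace epithelial cells. Of 6 tested, 5 were called higher (median 2.37): Krt8, Krt18, Krt19, Krt23 and, by the rule, Krt7. Krt18, the partner of Krt8, was at 833, 1617 and 1051 CPM against 47.6, 63.4 and 107 CPM (4.01 ± 0.69). Krt8 was at 7205, 8531 and 6351 CPM against 2796, 2680 and 2934 CPM (1.38 ± 0.28). Both sets held Krt8 at high levels in all 3 mice, whereas Krt18 was low in absorptive enterocytes. Krt20, a keratin of mature enterocytes, was the one not called.

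Of a list of wound-border genes, 10 of 27 were called higher and none lower (median 1.14), among them the junction gene Cldn4, the calcium-binding S100a6, S100a11 and S100a14, and the actin-binding Tmsb10, Tmsb4x and Actn1. Of a list of fetal and repair genes, 6 of 16 were called higher (median 2.05), among them Ly6a and the annexins Anxa2, Anxa3 and Anxa5. Clu, which marks a regenerative stem cell, was at 20.7, 39.4 and 4.42 CPM against 6.61, 4.44 and 4.60 CPM and was not called. Of hypoxia and glycolysis genes, 4 of 22 were called higher (median 1.30): Slc2a1, the glucose transporter GLUT1, Hk2, Pfkl and Bnip3. The list of glutathione and oxidative-stress genes had 2 of 27 (Gsta4 and Akr1b8; median 0.05).

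Absorptive genes themselves were not called in either direction (0 of 22, median -0.74). Fabp1, a fatty-acid carrier, was at 27282, 12674 and 16491 CPM against 18618, 18621 and 17771 CPM, and Sis, the sugar-digesting enzyme sucrase-isomaltase, at 1362, 1838 and 1521 CPM against 2311, 2676 and 2883 CPM. The levels of Fabp1 overlapped between the sets, and those of Sis did not. Both are among the 6 genes that chose the absorptive enterocytes, and all 6 are in this list. These levels and the median of the list therefore describe the sets and test nothing. Of 6 genes of antigen presentation by MHC class II, 3 were called lower (H2-Eb1, H2-DMa and H2-DMb1; median -3.05). Over the whole list, EC-Foxc-DKO 2 differed little, with a summed level of 785 CPM in the injury-state cells without goblet-rich cells and 922 CPM in all absorptive enterocytes. In Control 1 the list was at 148 against 1681 CPM, and in EC-Foxc-DKO 1 at 36.8 against 964 CPM. Genes of B and plasma cells, with Igha the most abundant, were also lower in the former in each mouse. In Control 1, EC-Foxc-DKO 1 and EC-Foxc-DKO 2 they summed to 1.48, 26.3 and 28.1 CPM against 454, 60.5 and 132 CPM. They differed least in EC-Foxc-DKO 1, whereas the MHC class II list differed least in EC-Foxc-DKO 2. The 6 leukocyte genes summed to 0, 10.5 and 12.0 CPM against 37.8, 53.6 and 17.1 CPM. Leukocyte-gene cells were not left out of the absorptive enterocytes, and their part in the MHC class II values was not tested. Of 10 interferon-induced genes none was called (median -0.61), nor was any of 13 genes of the unfolded protein response (0.15) or of 10 heat-shock genes (0.78). Cycling genes are not compared here, because cycling cells were left out of the absorptive enterocytes alone. Against all absorptive enterocytes their summed level was 740 against 187 CPM in Control 1, 105 against 378 CPM in EC-Foxc-DKO 1 and 423 against 963 CPM in EC-Foxc-DKO 2. The paper's list for Enteroendocrine cell 2, which was drawn from these same libraries and is no independent evidence, had 6 of 10 called higher: S100a6, Lgals3, Serpinb6a, Anxa2, Sprr2a3 and Pmp22.

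Against villus-top cells none of the 6 markers was called in either direction (median -0.02). Nor was any of the 6 Sprr genes, the 6 keratins, the 22 hypoxia genes or the 10 genes of the paper's list. The rule set a minimum for the markers, so their levels test nothing, and their direction differed between mice. Summed, they were at 1878, 2865 and 2471 CPM in the injury-state cells of Control 1, EC-Foxc-DKO 1 and EC-Foxc-DKO 2. In villus-top cells of these mice they were at 1684, 1026 and 6967 CPM. Without goblet-rich cells, 22 of 6830 genes were called higher (0.322%) and 150 lower (2.2%). Those cells were left out on the injury-state side alone, whereas villus-top cells kept theirs, with 10 goblet genes at a sum of 3909, 20766 and 7095 CPM, and the genes furthest lower were goblet genes such as Fcgbp (-7.63) and Zg16 (-7.29). With goblet-rich cells, of 6819 genes, 16 were called higher in the injury-state cells (0.235%) and 120 lower (1.76%), all 6 villus-top genes of the rule among the latter. Counts over gene lists are from all 176 cells here, and the values of single genes that follow leave out the goblet-rich cells. Lypd8, a secreted Ly6-family protein that keeps bacteria from the epithelium, was at 2113, 2750 and 2499 CPM in Control 1, EC-Foxc-DKO 1 and EC-Foxc-DKO 2 against 954, 1150 and 1163 CPM (1.17 ± 0.08), and with goblet-rich cells at 4159 CPM in EC-Foxc-DKO 1. Its values did not overlap, and neither did those of Il18, an epithelial cytokine, at 351, 386 and 500.1 CPM against 103, 107 and 225 CPM (1.58 ± 0.38). Ly6a, Ms4a18, Car4, a carbonic anhydrase, and Manf, a protein of the endoplasmic reticulum stress response, were also higher than in villus-top cells, at 2.35 ± 0.62, 2.14 ± 0.44, 1.79 ± 0.21 and 1.23 ± 0.21. So were Ccl25, a chemokine of the small intestine (1.32 ± 0.35), Timm8b, a protein of mitochondrial import (1.22 ± 0.11), Reep6 (1.18 ± 0.14) and Sdhd, a subunit of succinate dehydrogenase (1.10 ± 0.04).

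Lower than in villus-top cells was Tubb2a, a tubulin, at 77.0, 52.6 and 99.9 CPM against 435, 316 and 606 CPM, with nearly the same ratio in each mouse (-2.55 ± 0.06). Of 17 villus-tip genes, 5 were called lower (Egfr, Apob, Selenop, Enpp3 and Ceacam20; median -1.09). Of the wound-border list, 3 of 29 were called lower: Lama3, which encodes a laminin chain of the basement membrane, and the integrin genes Itgb6 and Itgav. Clu was at 20.7, 39.4 and 4.42 CPM against 195, 181 and 62.2 CPM (-2.96 ± 0.71). Lama3 was at 8.88, 36.8 and 20.8 CPM against 261, 204 and 129 CPM (-3.25 ± 1.29).

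The cells were not alike in EC-Foxc-DKO 2, the only mouse with enough of them to divide. Without goblet-rich cells it held 61, 37, 28 and 7 cells with 3, 4, 5 and 6 markers. S100a6 was at 2926, 1974, 8498 and 15894 CPM in them, Krt18 at 593, 320, 1798 and 4711 CPM, and Cldn4 at 23.3, 12.0, 236 and 621 CPM. Cells with 5 or 6 markers held more of these genes than cells with 3 or 4, with no rise from 3 to 4. Il1rn, which encodes the antagonist of the interleukin-1 receptor, was at 20.9, 3.99, 82.6 and 265 CPM, and Hilpda, a hypoxia-induced protein of lipid droplets, at 4.91, 0.997, 59.99 and 315 CPM. The antimicrobial lectins went the other way: Reg3b was at 47745, 47129, 27040 and 20285 CPM and Reg3g at 21464, 21460, 9452 and 9296 CPM. Pigr was at 388, 336, 121 and 76.3 CPM. Median depth was 21957, 25131, 28418.5 and 23876 UMIs, so the 7 cells with all markers were not the deepest. Cells with 5 or 6 markers more often carried 2 villus-top genes of the rule than cells with 3 or 4. The 34 cells of this mouse with 2 such genes, goblet-rich ones included, had S100a6 at 10315 and Krt18 at 2461 CPM. In them Cldn4 was at 423 and Reg3b at 26327 CPM. The part of this in the differences by marker number was not tested.

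**Figure D5:**
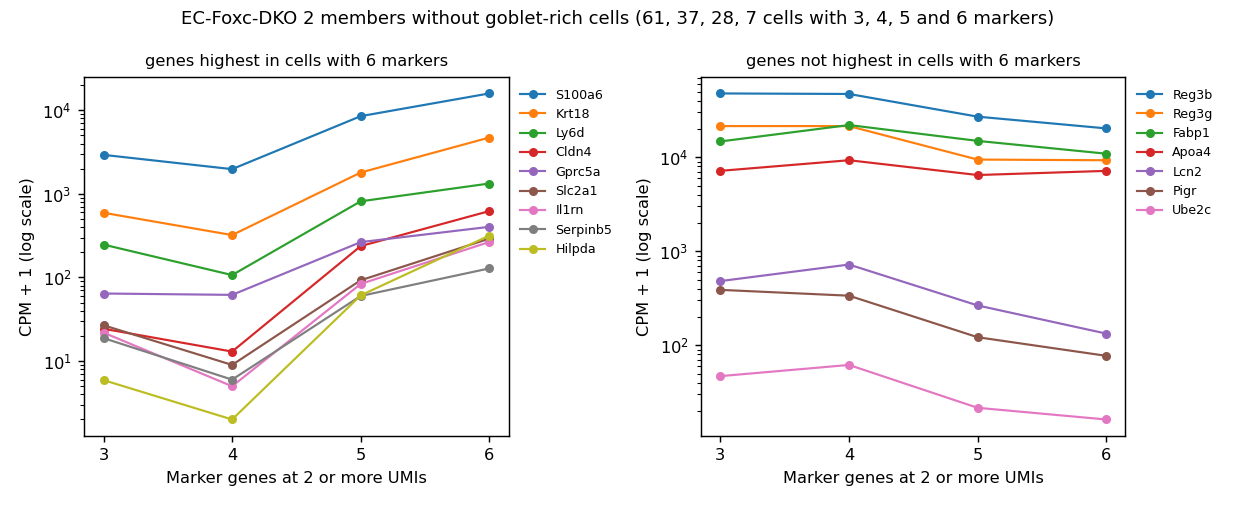
Level (CPM + 1, log axis) of selected genes in EC-Foxc-DKO 2 injury-state cells without goblet-rich cells, by the number of marker genes at 2 or more UMIs; each point sums the cells of 1 class. S100a6 goes from 2926 CPM at 3 markers to 15894 CPM at 6, and Reg3b from 47745 to 20285 CPM.

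Whether the injury-state cells of EC-Foxc-DKO mice differ from those of controls was tested with edgeR's quasi-likelihood test on UMIs summed per mouse, a contrast that the rule did not use. Of 5299 genes tested, 4 were higher in EC-Foxc-DKO mice at a Benjamini-Hochberg adjusted p under 0.05 (0.0755%) and none lower, and 69 genes had an unadjusted p under 0.05. Il1rn had 1 UMI in Control 1, none in Control 2, 50 in EC-Foxc-DKO 1 and 185 in EC-Foxc-DKO 2, which is 1.32, 0, 103 and 46.7 CPM (log2 5.77, SE 1.25, edgeR adjusted p = 0.0165). Over each genotype's summed UMIs that was a ratio of 40.5 (exact 95% counting interval 7.20 to 1606). Hilpda had 1, 0, 45 and 140 UMIs (log2 5.52, edgeR adjusted p = 0.0165), and Serpinb5, which encodes the protease-inhibitor relative maspin, had 1, 0, 43 and 129 UMIs (log2 5.43, edgeR adjusted p = 0.0165). Adm, the vasodilator peptide adrenomedullin, had 0, 0, 21 and 88 UMIs, at least 6.26-fold higher than the floor of 3 UMIs over the control cells (edgeR adjusted p = 0.0465). Both EC-Foxc-DKO mice lay above Control 1 for all 4 genes, whereas the single cell of Control 2 has a floor of 341 CPM and could not have shown these levels.

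These calls rested on few cells. In EC-Foxc-DKO 1, the 1 cell with all 6 markers held all 50 UMIs of Il1rn, 42 of the 45 of Hilpda, 37 of the 43 of Serpinb5 and 19 of the 21 of Adm. It had 25152 UMIs and only 2 of the 5060 Fabp1 UMIs of its mouse. In EC-Foxc-DKO 2 the UMIs were spread more widely, over 26 of 141 cells for Il1rn, 24 for Hilpda, 34 for Serpinb5 and 21 for Adm. With all of EC-Foxc-DKO 1 left out, the log2 changes were 5.13, 4.73, 4.61 and 8.14 in the same order. That fit holds 1 EC-Foxc-DKO mouse. Without the 6-marker cell of EC-Foxc-DKO 1 these 4 genes fell below the filter on low counts and were not tested. Of the 5231 genes tested there none passed (edgeR lowest adjusted p = 0.468, with 51 genes at an unadjusted p under 0.05). None passed with the replicate number as a block either (9 genes at an unadjusted p under 0.05), nor with DESeq2 (15 genes), nor without EC-Foxc-DKO 2 (edgeR lowest adjusted p = 0.187; 71 genes).

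The sets compared also differed in kind between the mice. Cells with 0, 1 and 2 of the villus-top genes of the rule numbered 2, 4 and 13 in Control 1, 1, 2 and 12 in EC-Foxc-DKO 1, and 65, 42 and 34 in EC-Foxc-DKO 2, and the 1 cell of Control 2 had 1. Most cells of Control 1 and EC-Foxc-DKO 1 thus lay just inside the limit, whereas those of EC-Foxc-DKO 2 did not. Ada, the adenosine deaminase of the villus top, was at 604, 348 and 23.2 CPM in Control 1, EC-Foxc-DKO 1 and EC-Foxc-DKO 2, and 12 genes of the lower villus, Reg3b the most abundant, summed to 17468, 23340 and 63786 CPM. In absorptive enterocytes of the same mice Ada was at 76.3, 83.0 and 12.3 CPM. There the 12 genes summed to 30428, 35623 and 70826 CPM, so EC-Foxc-DKO 2 stood apart in absorptive enterocytes too. The part of these differences in the genotype test was not tested.

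The other genes named for this test did not pass. Plet1, a surface protein of epithelial progenitors, had 0, 0, 8 and 150 UMIs (edgeR adjusted p = 0.0523). The genes of lowest p among those lower in EC-Foxc-DKO mice were Eno3, Ube2c, Mki67, Apol9a and Srebf1, with edgeR adjusted p from 0.102 to 0.9998. Of the 121 UMIs of Ube2c in Control 1, 117 came from 1 cycling cell, which also held 54 of the 56 of Mki67. Akr1b8 had a log2 change of 1.78 (edgeR adjusted p = 0.9998). The markers are not read here, because the rule set a minimum for them in every cell. Without the goblet-rich cells, and so without Control 2, 15 of 6306 genes were higher (0.238%) and 6 lower (0.0951%). With Control 2 alone left out no gene passed (edgeR lowest adjusted p = 0.11; 210 genes at an unadjusted p under 0.05), and both fits rest on 1 control mouse. The genes higher in the former included the 4 genes above with Ly6d, Psca, Slc2a1, Btc and the antimicrobial genes Reg3g and Lcn2. Ly6m was among them too but is not read, since it is a villus-top gene of the rule. In EC-Foxc-DKO 1, 150 of its 155 UMIs lay in the 6-marker cell. Lcn2 had 1 UMI in Control 1, 2 in EC-Foxc-DKO 1 and 1803 in EC-Foxc-DKO 2, so that its change was that of 1 mouse.

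The promoters of the genes with the lowest p among those higher in EC-Foxc-DKO mice are shown because 4 of the 5 hold the TGANTCA motif in at least 1 of their annotated windows of 250 bases before the start (80%, against 7.82% of all genes). Adm holds none in its window. The genes were picked by their p-values and the motif with the results in view, so this is a description of the sequences. Each is written 5′ to 3′ in the direction of the gene, from RefSeq on GRCm38.p6, with the match in capitals. The windows are chr2:24336610-24336859 for Il1rn (match 141 bases before the start), chr6:29272376-29272625 for Hilpda (128 bases), chr1:106860925-106861174 for Serpinb5 (140 bases) and chr9:50494275-50494524 for Plet1 (144 bases), all on the plus strand.
Il1rn: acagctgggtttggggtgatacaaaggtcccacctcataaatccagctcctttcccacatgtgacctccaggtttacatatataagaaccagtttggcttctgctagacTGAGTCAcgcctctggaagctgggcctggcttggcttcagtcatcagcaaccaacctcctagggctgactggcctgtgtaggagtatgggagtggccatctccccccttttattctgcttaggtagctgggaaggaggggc
Hilpda: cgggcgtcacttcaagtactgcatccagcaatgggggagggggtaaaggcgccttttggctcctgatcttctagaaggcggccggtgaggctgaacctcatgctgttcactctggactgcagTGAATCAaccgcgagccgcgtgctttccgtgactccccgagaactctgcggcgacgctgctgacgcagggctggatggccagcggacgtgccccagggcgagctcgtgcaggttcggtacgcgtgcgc
Serpinb5: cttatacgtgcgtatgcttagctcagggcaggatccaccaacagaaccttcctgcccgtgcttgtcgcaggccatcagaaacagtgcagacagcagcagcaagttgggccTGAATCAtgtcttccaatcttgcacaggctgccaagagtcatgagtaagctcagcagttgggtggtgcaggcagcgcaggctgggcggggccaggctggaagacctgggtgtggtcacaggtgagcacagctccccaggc
Plet1: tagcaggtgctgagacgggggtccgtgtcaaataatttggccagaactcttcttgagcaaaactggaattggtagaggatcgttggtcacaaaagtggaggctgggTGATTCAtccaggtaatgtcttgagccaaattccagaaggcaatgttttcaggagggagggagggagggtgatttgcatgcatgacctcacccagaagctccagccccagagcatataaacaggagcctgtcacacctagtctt
Of the 15 genes furthest higher in the injury-state cells, 12 had a promoter in the table and 2 of these, Cldn4 and S100a11, held the motif.

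The genotype change in the injury-state cells was then compared with that in absorptive enterocytes of the same mice, in 1 model with a term for each mouse. Of 9560 genes, 36 changed more upward in the injury-state cells (0.377%) and 98 more downward (1.03%). The downward ones included 12 of 16 cycling genes. In the injury-state cells Ube2c was at 160, 0, 0 and 40.6 CPM in Control 1, Control 2, EC-Foxc-DKO 1 and EC-Foxc-DKO 2, whereas in absorptive enterocytes it was at 26.8, 29.4, 49.3 and 142 CPM, higher in both EC-Foxc-DKO mice than in both controls. The interaction was -4.39 on the log2 scale (SE 0.64, edgeR adjusted p = 6.49e-08). Without the 1 cycling cell of Control 1 it was 0.077 (edgeR adjusted p = 1), and 20 genes passed in place of 134, 13 upward and 7 downward. Without the goblet-rich cells, and so without Control 2, 115 of 11794 genes changed more upward (0.975%) and 165 more downward (1.4%), and without Control 2 alone 117 and 168.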

How the data were processed

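The deposited files hold raw UMI counts, which the authors made from 10x Genomics 3′ libraries on mm10 with Cell Ranger (4.0.0 in the submitters' processing notes; the paper's methods name another version). The deposited table that joins the libraries served to define 1 alternative. Counting used the 3′ ends of transcripts. Total UMIs were 72046346, 15557181, 64781444 and 38750638 in Control 1, Control 2, EC-Foxc-DKO 1 and EC-Foxc-DKO 2, and depth per cell limits which low genes can be seen. Separate mice are the replicates.

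UMIs were summed per mouse and population. Levels are CPM with a pseudocount of 1 CPM in ratios, and genes needed 10 CPM. Genotypes and the interaction were tested with edgeR 4.0.16 (quasi-likelihood test, filterByExpr, TMM, Benjamini-Hochberg, threshold 0.05), with SE as the log2 change over the square root of F. Shares were tested by exact permutation with exact (Clopper-Pearson) intervals, which cover counting error only. Doublets were kept, since the methods state no removal, and Scrublet scores served as an alternative. With the highest scores removed, 12 of 19 injury-state cells were left in Control 1 and 1 of 1 in Control 2. In EC-Foxc-DKO 1 11 of 15 were left, and in EC-Foxc-DKO 2 135 of 141. Of all kept cells, 82 of 1539 were removed in Control 1, 167 of 2838 in EC-Foxc-DKO 1 and 45 of 1113 in EC-Foxc-DKO 2. Injury-state cells of Control 1 and EC-Foxc-DKO 1 thus had high scores more often than kept cells at large. DESeq2 1.42.0 was another.

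Named genes are the markers, hormones and the paper's lists, the 15 genes furthest higher and lower with at least 100 CPM, and the 5 of lowest p in each direction of the genotype test. Genes of the list sentences, the 6-marker cell, the cycling cell and the genes by marker number were chosen after their values were seen. The cells and gene lists were chosen with earlier results of these data known. Some genes that the rule or the lists hold are not reported here.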

Additional observations from a re-analysis of the deposited data

Results flagged for a closer look

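The genotype change differed between injury-state cells and absorptive enterocytes by a test of the difference itself for 134 genes (edgeR, adjusted p under 0.05). Those also named in the genotype test are given as log2 interactions. Il1rn was at 6.84 (edgeR adjusted p = 1.05e-05), Hilpda at 5.68 (2.04e-05), Adm at 11.27 (1.68e-05) and Serpinb5 at 4.20 (0.0436), each with a larger upward change in the injury-state cells. In the absorptive enterocytes of all 4 mice Il1rn stayed at or below 0.746 CPM, Serpinb5 at or below 2.00 CPM, Adm at or below 2.56 CPM and Hilpda at or below 3.18 CPM. The 6-marker cell of EC-Foxc-DKO 1 held most UMIs of the 4 genes in its mouse, and 142 genes passed without it. In that fit Hilpda was at 4.26 (edgeR adjusted p = 0.0135) and Adm at 10.17 (0.0030), Serpinb5 no longer passed (3.00, 0.365), and Il1rn fell below the filter on low counts and was not tested. Against all other Epcam+ cells Hilpda (edgeR adjusted p = 0.109) and Adm (0.163) did not pass. Serpinb5 did not pass with no filter on low counts (edgeR adjusted p = 0.124), without EC-Foxc-DKO 1 (0.353), without EC-Foxc-DKO 2 (0.0972), without goblet-rich cells (0.0687) or without the cycling cell of Control 1 (0.221). Without Control 1, which leaves 1 cell as the control, none of the 7 genes named here passed (edgeR adjusted p from 0.783 to 1). Eno3 was at -2.22 (edgeR adjusted p = 0.0318), Ube2c at -4.39 (6.49e-08) and Mki67 at -4.03 (1.47e-07), each with a larger downward change in the injury-state cells. Eno3 did not pass with no filter (edgeR adjusted p = 0.0785), against all other Epcam+ cells (0.0573) or without EC-Foxc-DKO 2 (0.775). Ube2c did not pass without EC-Foxc-DKO 1 (edgeR adjusted p = 0.808) or without EC-Foxc-DKO 2 (0.0513). Ube2c and Mki67 had 96.7 and 96.4% of their Control 1 UMIs in 1 cell, without which they were at 0.077 and 0.29 (edgeR adjusted p = 1 for both).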

How the results depend on the processing

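With 2 mice per genotype, and 1 cell in Control 2, leaving out a mouse moved the difference in share between 0.0682 and 15.8 percentage points, the genes changed by genotype between 0 and 554, those with an interaction between 29 and 285, and the genes higher or lower than in absorptive enterocytes between 122 and 207 and between 65 and 281. With 1 mouse left in a genotype, the lone mouse is assumed to vary like the others. The genotype test gave 4 genes, and 0 with DESeq2 (15 at an unadjusted p under 0.05), 13 with no filter on low counts, 122 with at least 4 markers, 2 with the highest doublet scores removed, 21 without goblet-rich cells and so without Control 2 (0 without Control 2 alone), and 0 without the 6-marker cell. With the replicate block it gave 0 and with the crossed pairing as a block 7; deviations of same-numbered mice correlated at -0.22, and with 2 mice per genotype the numbers are no evidence of pairing. The interaction gave 134 genes, 87 with no filter, 38 against all other Epcam+ cells, 280 without goblet-rich cells and so without Control 2 (285 without Control 2 alone), and 20 without the cycling cell of Control 1. Of levels, 121 genes were higher than in absorptive enterocytes, 16 than in villus-top cells, 6 than in all other Epcam+ cells and 63 with 10 CPM added. The genes lower numbered 63, and 120, 213 and 16 in the same order, 211 with at least 4 markers, 36 without goblet-rich cells against absorptive enterocytes without other types and 111 without the cycling cell. The share of cells with a hormone UMI went from 57.4 to 10.5% when cells were thinned to 2000 UMIs.

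Some log2 values changed sign. Without goblet-rich cells, goblet genes did: Clca1 -3.97, Fcgbp -4.58, Tff3 -3.93, Zg16 -4.85, Muc2 -3.18 and Spink4 -2.66. Against absorptive enterocytes without other types, Clca1 was -0.53, Fcgbp -0.40, Tff3 -0.44, Zg16 -0.030, Chga 1.41, Chgb 0.73 and Gip 0.97. With at least 4 markers, Clca1 was -0.89 and Fcgbp -0.54. Against villus-top cells, Cldn4 was -1.42, Gml -0.19, Gml2 -0.22, Pmp22 -1.47, Pold4 -0.090, Rdh7 0.51, Serpinb6a -0.52 and Tm4sf4 -0.37. In the genotype test with at least 4 markers, and so without Control 2, Krt7 was -0.15, Sprr2a3 -0.18, Tm4sf4 -0.54 and Ube2c 2.60. Tm4sf4 was -0.018 there with 1 UMI per marker in all 4 mice. With a mouse left out of that test Srebf1 ranged from -1.90 to 7.95 and Ube2c from -8.46 to 8.21, both highest without Control 1. The causes of these changes were not tested. The alternatives that leave out goblet-rich cells, other cell types, leukocyte-gene cells or 1 cell, and the crossed pairing, were chosen after seeing the data.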

Other observations

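Somatostatin (Sst), a hormone of D cells, had 392 UMIs in the 176 injury-state cells, and 389 of them lay in 1 cell of EC-Foxc-DKO 2. Only 4 of the cells had any Sst UMI. In the hormone cells defined by 8 enteroendocrine genes, Sst was at 3558 CPM in EC-Foxc-DKO 1, with 1782 of its 1783 UMIs in 1 cell, at 2.24 CPM in Control 1 and at 0 in the other mice.

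In EC-Foxc-DKO 2 a few further genes differed among the injury-state cells with 3, 4, 5 and 6 markers. Plaur, the receptor of urokinase, was at 16.0, 2.99, 45.2 and 204 CPM, and F3, the tissue factor that starts blood clotting, at 35.6, 16.0, 33.4 and 178 CPM. Slc2a1 was at 25.8, 7.98, 91.5 and 290 CPM. Ly6a was highest in cells with 5 markers, at 212, 205, 450 and 168 CPM.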
